A study of Xiphophorus maculatus x Xiphophorus hellerii with 32 samples.

Results

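A set of 59 transcripts, chosen for a higher mean level in skin than in melanoma, is described here across 32 libraries. The set was chosen from 20469 transcript identifiers in a table of 20499 rows: a member had a mean of at least 10 CPM (a library's count for the transcript over the library's total count, times 1e6) over 16 skin libraries, and that mean was at least 8 times the mean over 16 tumor libraries. Of the identifiers, 9255 reached 10 CPM in skin, and the 59 members are a small part of them. Because these means chose the members, the difference between the tissues is given below as a description only.

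All libraries came from 9-month-old melanoma-bearing backcross hybrids (BC1) between a platyfish, Xiphophorus maculatus, and a swordtail, Xiphophorus hellerii, with no treatment in the labels. Skin and spontaneous melanoma were dissected from the animals, and 14 fish contributed both tissues. Fish names combine a number with a letter, and several fish have the same number: 8 skins and 8 tumors carried 11949, 3 of each 11935, and 3 of each 11963. The skins of 11960a and 11960b and the tumor of 11960a carried 11960. The sources used here do not say what this number stands for. One tumor column has a name that would fit fish 11960b, but no tumor title names that fish, and a tumor title is left without a column. The column was used as a tumor without a fish. Skin here means skin of tumor-bearing hybrids, and no skin of a parental species or of a tumor-free fish was analysed here.

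Fish skin is a layered tissue, with a living, mucus-covered epidermis above a dermis that holds scales, connective tissue, vessels, nerves and several kinds of pigment cell. In the Gordon-Kosswig cross, to which these hybrids belong, some offspring inherit Xmrk, an oncogenic extra copy of an EGF receptor gene, without the regulator that restrains it in the platyfish, and black pigment cells then form invasive tumors in the skin. The files do not pair the identifiers with gene names, so what the members encode is unknown here. For the same reason no marker of epidermis, muscle, scale or any other skin component could be looked up, and the label "skin" was checked only by Xmrk, whose mean was 64.3 ± 26.7 CPM over the skins (SD, n = 16) and 580 ± 282 CPM over the tumors (SD, n = 16).

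The skins had between 4239036 and 6673975 total counts, and the tumors between 2578877 and 6977222. Together the members took a median of 0.498% of the counts in skin (range 0.361% to 1.17%) and 0.0389% in tumor (range 0.00883% to 0.0779%). The tissues did not overlap in this share. In bulk tissue, fewer cells of a type and less RNA per cell cannot be told apart, and this holds for every level below.

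One library stood apart and carried part of the set by itself. Of the 59 members, 10 were highest in the skin of fish 11949h and missed the rule without that library. There they ranged from 162 to 1120 CPM, with 22911 counts in all. In the other 15 skins 88 of 150 values were 0 and the highest was 99.4 CPM. ENSXMAT00000007196 had 1120 CPM in the skin of 11949h and at most 0.506 CPM in any other skin, and ENSXMAT00000015775 had 1029 CPM there and at most 1.01 CPM elsewhere. ENSXMAT00000010652 had 206 CPM there. ENSXMAT00000014660 had 233 CPM and 1 count over all 16 tumors, and ENSXMAT00000005939 had 202 CPM and 4 counts over all tumors. The tumor of the same fish held 13 counts of the 10 members together.

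The skin means of these 10 members thus rest mainly on 1 value, which made up between 62.1% and 99.9% of their sum over skins. Without it ENSXMAT00000000524, ENSXMAT00000010652 and ENSXMAT00000009985 kept ratios of 73.4, 33.3 and 32.4. They missed the rule because their skin means fell to 7.24, 1.83 and 2.46 CPM. The ratios of the others fell to 2.19 or less. For ENSXMAT00000000184, ENSXMAT00000015775 and ENSXMAT00000012681 they fell to 0.93, 0.22 and 0.041, so the mean over the other skins lay below the tumor mean. For ENSXMAT00000012681 the tumor was the lower tissue in only 1 of the 14 paired fish. Among all 20499 rows, 38 had a highest skin of at least 10 CPM that was at least 20 times the next skin plus 0.5 CPM, and all 38 had that highest value in the skin of 11949h. No other skin and no tumor held such a row. In that skin the 38 rows summed to 5488 CPM, with a median of 52.7 CPM each, and 24 of them had no count in the tumor of the fish. An 11th member, ENSXMAT00000010295, also missed the rule without this library. Its ratio of 8.10 was the smallest in the set. The remaining 48 members met the rule with and without the skin of 11949h, and the descriptions of loss below use these 48 unless all 59 are named.

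**Figure D1:**
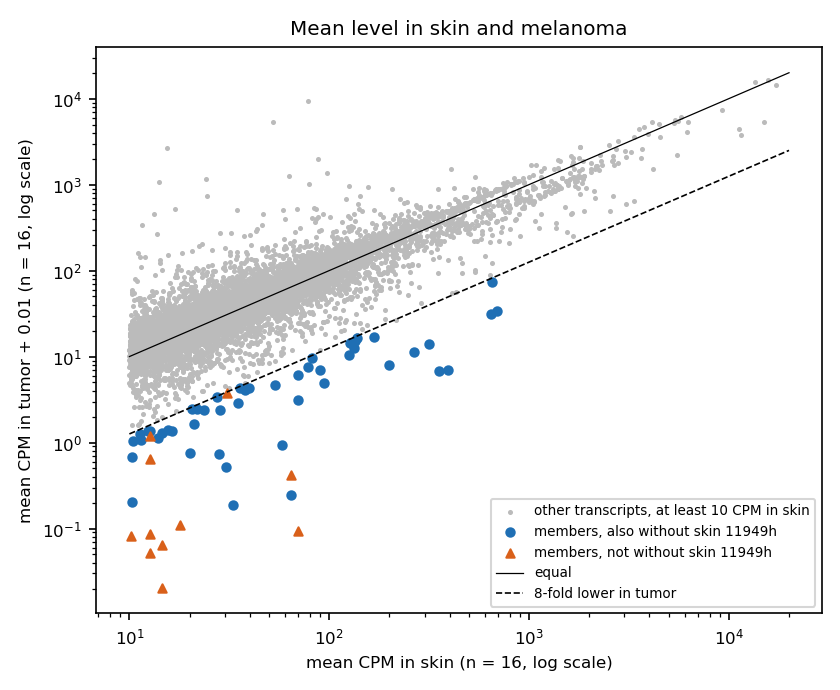
Mean CPM in tumor plus 0.01 (vertical, log scale) against mean CPM in skin (horizontal, log scale) for 9255 transcripts with at least 10 CPM in skin, each mean over 16 libraries. Blue circles are the 48 members that meet the rule with and without the skin of 11949h, orange triangles the 11 that need that library, grey points all other transcripts, and the dashed line marks the 8-fold ratio. Members lie under the dashed line, and nearly all of the triangles sit far below it.

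The most abundant member was ENSXMAT00000017101, which ranged from 193 to 2834 CPM in skin with a median of 494, and from 0 to 146 CPM in tumor with a median of 33.7. Every tumor lay below every skin, and the means were 688 ± 685 and 34.2 ± 37.9 CPM (SD, n = 16 each, ratio 20.1). ENSXMAT00000012104 was nearly as high and far steadier in skin, from 264 to 1190 CPM with a median of 661. It ranged from 1.36 to 107 CPM in tumor, again without overlap, with means of 648 ± 224 and 31.4 ± 28.8 CPM (ratio 20.6). ENSXMAT00000005457 ranged between 120 and 2239 CPM in skin and between 0.180 and 312 CPM in tumor. Its groups overlapped, since the tumor of 11935d at 312 CPM stood above 4 skins, and the ratio of means was 8.88.

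Most of the other abundant members had ratios of more than 20. ENSXMAT00000008992 had skins at 393 ± 549 CPM and tumors at 6.91 ± 8.04 CPM (ratio 56.8), and its skin level ran from 22.4 CPM in 11963d to 2283 CPM in 11949a. ENSXMAT00000006308 had 353 ± 259 CPM (skin) against 6.78 ± 6.49 CPM (tumor) (ratio 52.0), with no overlap. ENSXMAT00000013994 had 316 ± 251 and 13.9 ± 14.9 CPM (ratio 22.8) and ENSXMAT00000004168 had 267 ± 209 and 11.3 ± 15.4 CPM (ratio 23.6), both without overlap (SD, n = 16 each). ENSXMAT00000017886 had 199 ± 81.1 CPM in skin, between 119 and 421, and 7.97 ± 2.41 CPM in tumor, between 4.35 and 13.8 (ratio 25.0). ENSXMAT00000003255, the fourth highest in tumor, had 167 ± 113 and 17.0 ± 12.4 CPM (ratio 9.80).

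The largest ratios of means among the 48 were those of less abundant members. ENSXMAT00000004916 ranged from 3.99 to 265 CPM in skin, with a median of 40.6, and no tumor exceeded 1.05 CPM. It had 21 counts over all 16 tumors and none in 9 of them, and the ratio of means was 272. ENSXMAT00000003959, chosen after its values were seen, ranged from 9.89 to 99.6 CPM in skin and reached at most 0.607 CPM in tumor, with 16 counts in all tumors (ratio 185). ENSXMAT00000017075 ran between 3.68 and 380 CPM in skin and between 0 and 3.86 CPM in tumor (ratio 62.4), and its groups overlapped slightly. The skin of 11949a held 40.7% of its sum over skins. With 0.5 CPM added, its fold within a fish had a median of 13.4 and a minimum of 2.07.

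Over the 59 members the median was 33.0 CPM in skin and 2.38 CPM in tumor, and the median ratio was 12.3, against 0.903 over the 9255 transcripts of at least 10 CPM in skin. Over the 48 members the median ratio was 11.7, with a range from 8.23 to 272. In skin, 14 members averaged at least 100 CPM. Every tumor lay below every skin for 23 of the 59 members, all of them among the 48, where the background share was 0.508% of the 9255 transcripts. The tumor was the lower tissue in all 14 paired fish for 47 of the 59 members and 46 of the 48, where the background was 5.53%. In edgeR, 49 members passed the low-count filter and all 49 were called lower in tumor, against 12.3% of tested transcripts, and with the fish as a block the background was 22.9%. The rule used this contrast, so nothing is read from these counts. The 10 members carried by the skin of 11949h did not pass the filter in these fits, though some of them did in the tests between numbers below.

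Just inside the threshold stood ENSXMAT00000010295 (ratio 8.10), ENSXMAT00000017897 (8.23) and ENSXMAT00000003414 (8.43). Just outside it stood ENSXMAT00000010549, with 215 CPM in skin, 26.9 CPM in tumor and a ratio of 7.97, ENSXMAT00000019194 (7.81) and ENSXMAT00000015638 (7.78). The ratios thus ran on across the threshold without a gap.

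**Figure D2:**
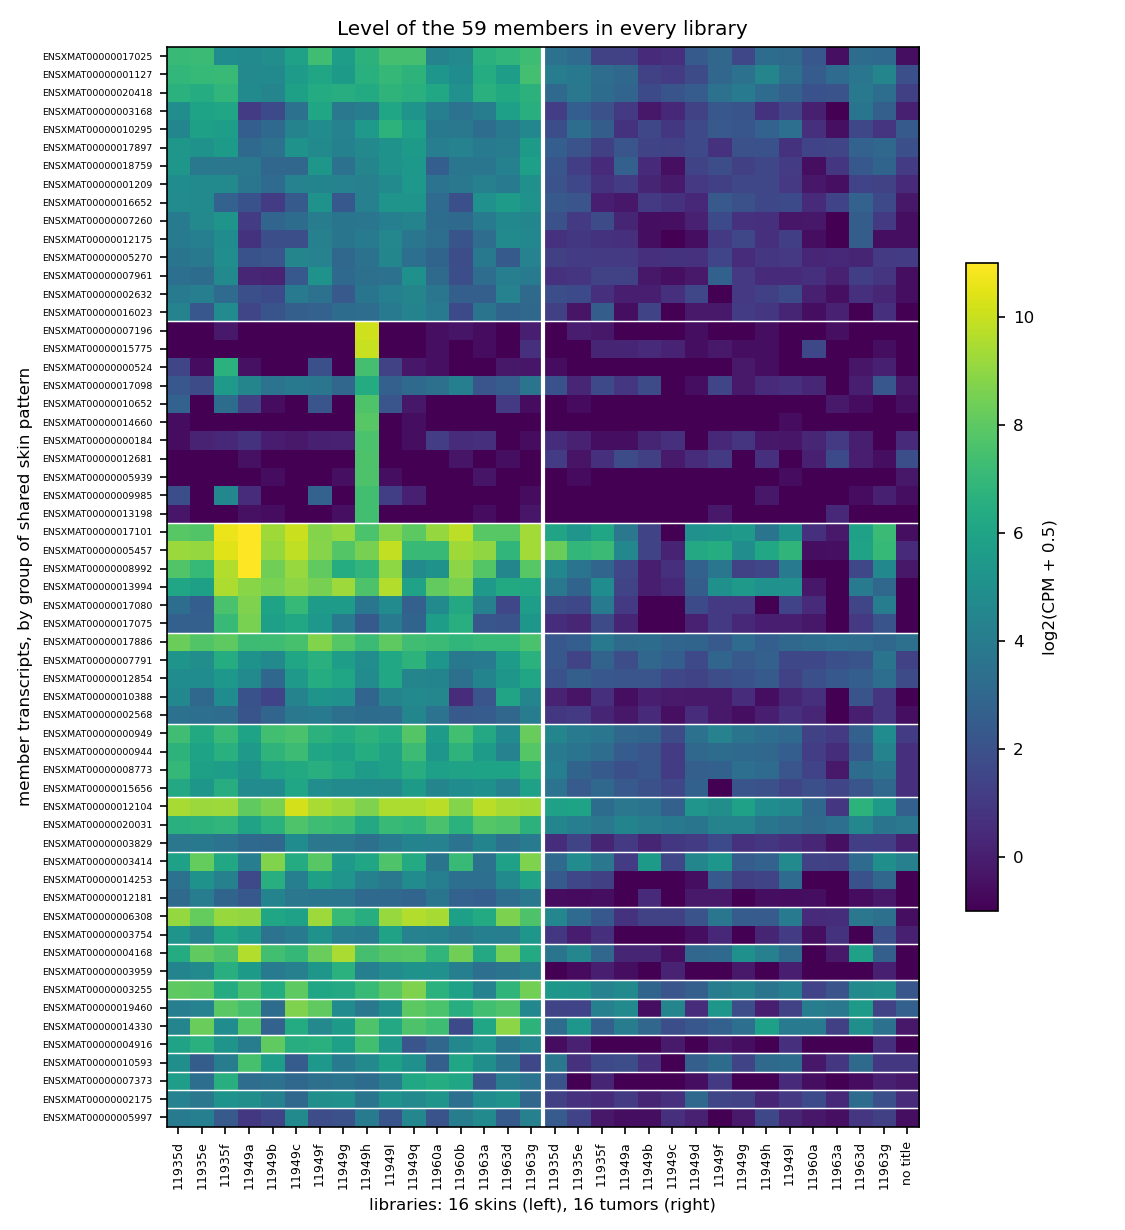
Level of each of the 59 members, as log2(CPM + 0.5) by color, in 16 skins (left of the white line) and 16 tumors (right), with rows ordered by groups of shared skin pattern, which white lines separate. The bright column in the second block is the skin of 11949h, and the third block, led by ENSXMAT00000017101, is bright in skin and darkest in 5 of the tumors.

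The members did not vary as 1 block between skins. The median Pearson r between pairs of members over the 16 skins was 0.10 on log2(CPM + 0.5), and 0.16 among the 48, against 0.07 between pairs of all 9255 transcripts. Over the 16 tumors the medians were 0.25 and 0.39, against 0.07. These correlations share libraries and depth and are a description. Average-linkage clustering at r = 0.5 over skins put members into 4 groups of at least 5, 5 smaller groups and 8 single transcripts. The groups were formed from these values and carry no test.

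The largest group had 15 members, led by ENSXMAT00000017025 and ENSXMAT00000001127. ENSXMAT00000017025 ranged between 19.9 and 178 CPM in skin and between 0.177 and 10.8 CPM in tumor. ENSXMAT00000001127 ranged from 24.5 to 170 and from 1.62 to 21.5 CPM. Summed over the group, skins ran from 133 CPM in 11949a to 823 CPM in 11949l, and tumors from 15.2 CPM in 11949c to 83.3 CPM in 11963d. The lowest skin of this group thus lay above its highest tumor.

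The second group, of 11 members, was that of the skin of 11949h. Its summed level there was 3777 CPM, the next skin, 11935f, had 176 CPM, and every other skin had less. It held the 10 members named above as resting on that library and ENSXMAT00000017098, which was also highest there, at 82.9 CPM, but met the rule without it.

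The third group had 6 members: ENSXMAT00000017101, ENSXMAT00000005457, ENSXMAT00000008992, ENSXMAT00000013994, ENSXMAT00000017080 and ENSXMAT00000017075. Its sum in skin ranged from 461 CPM in 11963d to 8607 CPM in 11949a, and the members' total was also highest in that skin, at 11711 CPM. In tumor the sum ranged from 0.585 CPM in 11963a to 416 CPM in 11935d. It stood at 1.42 CPM in the tumor without a title, 2.43 CPM in 11949c, 2.89 CPM in 11960a and 5.50 CPM in 11949b, and at 42.8 CPM or more in the other 11 tumors. No tumor lay between 5.50 and 42.8 CPM. ENSXMAT00000017080, one of its less abundant members, ranged between 2.45 and 408 CPM in skin and between 0 and 16.5 CPM in tumor, with no count in 5 tumors. The median r between members of this group was 0.72 over skins and 0.83 over tumors, the latter over the low and the higher tumors together. In the other groups of at least 5 members it was lower over tumors, at 0.44 in the first, -0.12 in the second and 0.20 in the fourth.

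The fourth group had 5 members, led by ENSXMAT00000017886 and ENSXMAT00000007791. Its sum ranged from 148 to 654 CPM in skin and only from 12.8 to 31.4 CPM in tumor. In the tumor of 11963a, where the third group summed to 0.585 CPM, ENSXMAT00000017886 stood at 10.1 CPM, and in the tumor of 11935d, where the third group was highest, it stood at 4.35 CPM. ENSXMAT00000007791 ranged between 13.9 and 109 CPM in skin and between 2.12 and 11.6 CPM in tumor.

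Among the smaller groups, ENSXMAT00000012104 and ENSXMAT00000020031 shared their skin pattern with ENSXMAT00000003829, which was at 14.5 ± 5.34 CPM in skin and 1.29 ± 0.68 CPM in tumor, and the median r of the 3 was 0.85 over skins. All 3 had no overlap between tissues, and none passed the fish test described below. ENSXMAT00000000949 (125 ± 71.4 CPM in skin, 10.4 ± 7.85 CPM in tumor) and ENSXMAT00000000944 (89.6 ± 52.7 CPM in skin, 0.974 to 20.4 CPM in tumor) were grouped with ENSXMAT00000008773 and ENSXMAT00000015656. ENSXMAT00000003414 was grouped with ENSXMAT00000014253 and ENSXMAT00000012181, of which the last reached no more than 0.859 CPM in any tumor and had a ratio of 52.6. ENSXMAT00000006308 was grouped with ENSXMAT00000003754 (28.1 ± 17.4 and 0.72 ± 0.89 CPM, ratio 39.2), and ENSXMAT00000004168 with ENSXMAT00000003959. The 8 single transcripts included ENSXMAT00000014330 (127 ± 131 and 14.2 ± 14.8 CPM) and ENSXMAT00000019460 (SD, n = 16 each). Members of these groups outside the naming rule are listed to account for the set.

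**Figure D3:**
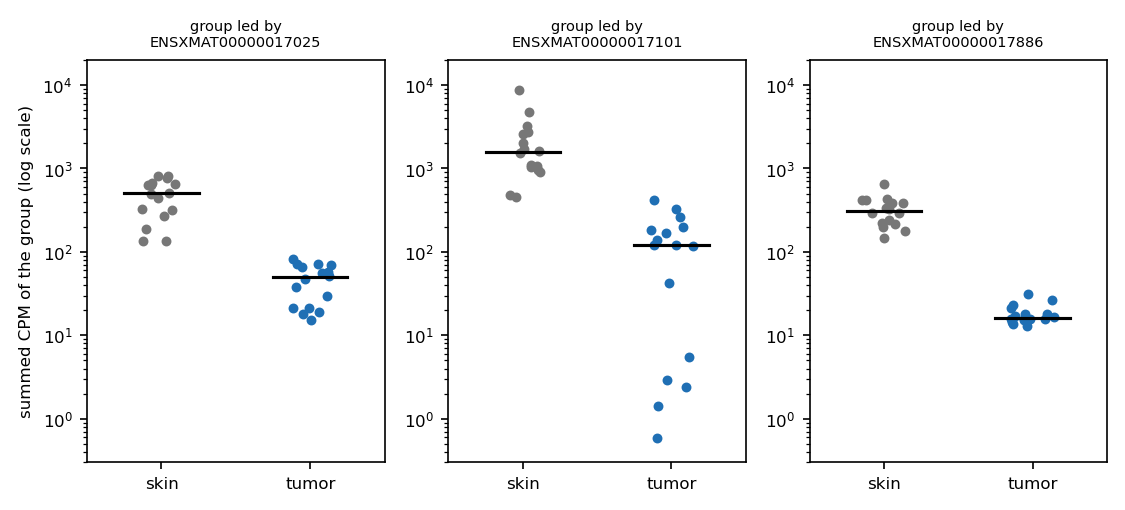
Summed CPM (log scale) of 3 groups of members in each library, with 16 skins in grey, 16 tumors in blue and the median as a bar. In tumor the group led by ENSXMAT00000017101 spans 0.585 to 416 CPM with 5 tumors apart at the bottom, while that led by ENSXMAT00000017886 spans 12.8 to 31.4 CPM.

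Members differed in how far they varied between tumors. Of the 48 members, 23 had a coefficient of variation (CV, SD over mean) above 100% between tumors and 4 had one under 50%, and 37 varied more between tumors than between skins. The median CV of the 48 was 68.1% over skins and 97.1% over tumors, against 46.8% and 46.6% over the 9255 transcripts. The members were chosen for low tumor levels, at which counting error is a larger part of the CV. The steady ones were ENSXMAT00000017886 (CV 30.3%), ENSXMAT00000020031 (31.1%), ENSXMAT00000005270 (34.0%) and ENSXMAT00000012854 (44.7%), of which ENSXMAT00000005270 was chosen after its values were seen. ENSXMAT00000020031 was at 134 ± 50.2 CPM (skin) against 15.3 ± 4.76 CPM (tumor) (SD, n = 16 each), and ranged from 8.48 to 23.1 CPM over the tumors.

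What remained in each tumor was measured as a percentage of each member's mean skin level, and the median over the 48 members was taken. It was lowest in the tumor of 11963a at 1.17%, where 15 of the 48 members had no count. It was 1.52% in the tumor without a title, 1.82% in 11949c, 1.88% in 11960a and 2.89% in 11949b. These are the same 5 tumors in which the third group was under 6 CPM. The 6 members of that group are among the 48, so the match is partly built in.

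The residual level was highest in 11963g at 11.9%, in 11963d at 10.3%, and in 11935d and 11935e at 9.81% and 9.78%. Between members of the same tumor the level varied widely: in 11963g the quartiles were 6.10% and 20.4%, and in 11963a 0% and 4.82%. Of the 48 members, 13 had their highest tumor in 11963g, 11 in 11935d and 10 in 11963d. The 5 tumors with the lowest medians had 4938279 to 5822684 total counts, and the shallowest library, the tumor of 11949f with 2578877 counts, had a median of 8.95%. Xmrk stood at 431 CPM in the tumor of 11963a, 483 CPM in that without a title, 396 CPM in 11949c, 645 CPM in 11960a and 809 CPM in 11949b, and at 534 CPM in 11963g, 772 CPM in 11963d, 139 CPM in 11935d and 192 CPM in 11935e. The values of 11963g and 11963d lay within the range of the 5 tumors with the lowest medians. Those of 11935d and 11935e were the lowest Xmrk values of all 16 tumors. A relation between Xmrk and the residual level was not tested. The sources used here do not give how much skin each tumor sample contained, and its part in these levels was not tested.

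**Figure D4:**
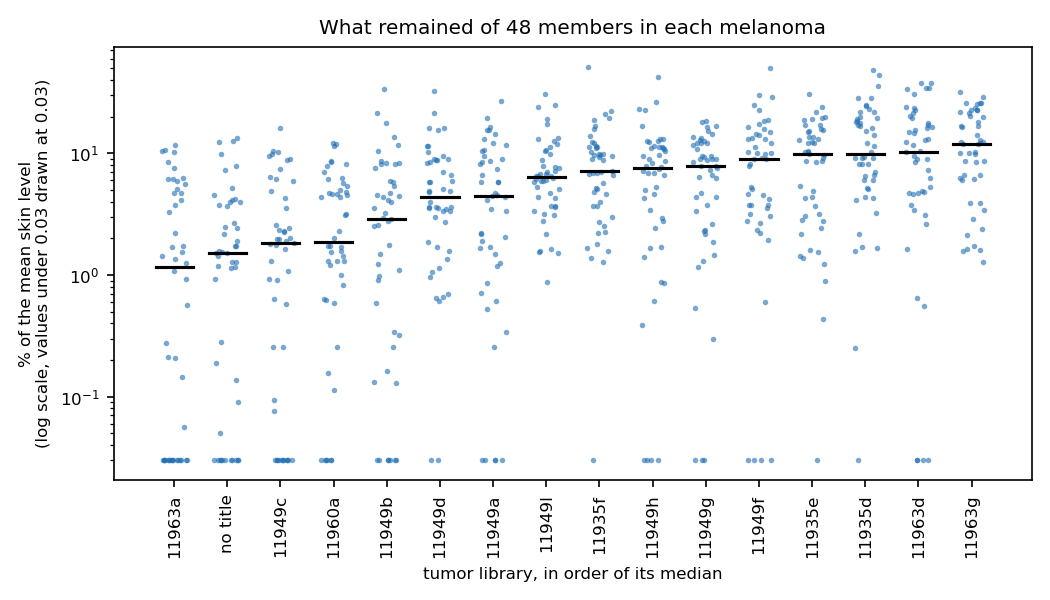
Level of 48 members in each of 16 tumors, as a percentage of each member's mean over 16 skins (log scale, values under 0.03% drawn at 0.03%), with tumors in order of their median, shown as a bar. Medians run from 1.17% in 11963a to 11.9% in 11963g, and members of the same tumor spread over more than 1 order of magnitude.

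Within fish, the tumor was set against the skin of the same animal with 0.5 CPM added to each. The median residual over the 59 members and 14 fish was 11.3% of skin, and 9.42% over the 48 members. By fish the median over the 48 ran from 4.43% in 11949c to 16.9% in 11963d. All 48 were lower in the tumor of 12 fish. The exceptions were ENSXMAT00000007961 in 11949a, at 0.708 CPM in skin and 2.06 CPM in tumor, and ENSXMAT00000014330 in 11949b, at 6.38 and 7.38 CPM.

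The fold within a fish varied with the member and with the fish. For ENSXMAT00000005457 it was 1.86 in 11935d, 2.03 in 11963d and 199 in 11949b, and in 11960a, 11963a and 11949c the tumor held under 1 CPM. For ENSXMAT00000012104 it ran from 6.38 in 11963d to 470 in 11963a, with a median of 21.5. For ENSXMAT00000017886 it ran from 12.3 to 81.7, with a median of 23.3. The median fold of a member over the 14 fish ranged among the 48 from 4.88 to 78.0.

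Whether the level of a member differed between fish was then tested. The rule used the tissue means and not this term, though 1 high skin could bring a member in. The test asked in edgeR whether fish differed in a model with tissue and fish over the 28 paired libraries, and was adjusted over all 14591 tested transcripts. Where tumor counts are few, skin alone can carry a pass, so a pass does not show a level kept across the 2 tissues. ENSXMAT00000004916 passed (edgeR adjusted p = 0.0106) with a Pearson r of 0.08 between skin and tumor of the same fish. Of 49 tested members, 32 passed, or 65.3%, where the background was 79.4%. Among the 48 members, 31 passed. Within the 7 paired fish of 11949 alone, 20 passed, where the background was 56%. By mean tumor level, the test passed 7 of 8 members below 1 CPM, where all 8 tested transcripts were members. Nearly all counts of these 8 came from skin (ENSXMAT00000003959 had 2887 in skins and 16 in tumors), so their passes say little about the tumors. The same-fish r described below had a median of 0.11 over all 17 members under 1 CPM. From 1 to 5 CPM it passed 16 of 23 members and 72.6% of all 106 tested transcripts, and from 5 to 20 CPM 9 of 15 members and 83.7% of all 2471. At 20 CPM or more it passed 0 of 3 members and 82.4% of all 6651. ENSXMAT00000005457 (edgeR adjusted p = 0.534), ENSXMAT00000012104 (0.532) and ENSXMAT00000017101 (0.541) were the 3 members that did not.

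The 4 smallest p-values of the fish test belonged to ENSXMAT00000019460 (edgeR adjusted p = 9.25e-08), ENSXMAT00000003414 (2.00e-07), ENSXMAT00000010295 (6.86e-06) and ENSXMAT00000010388 (1.55e-05), the last at 0.916 to 64.9 CPM in skin and 0 to 3.88 CPM in tumor. ENSXMAT00000019460 separated the paired fish into 7 with 9.11 to 30.8 CPM in skin and 7 with 167 to 413 CPM. The former were 11935d, 11935e, 11949b, 11949g, 11949h, 11949l and 11963g, and the latter 11935f, 11949a, 11949c, 11949f, 11960a, 11963a and 11963d, so fish of 11935, 11949 and 11963 fell on both sides. In tumor the former had 0.172 to 3.05 CPM and the latter 13.6 to 45.4 CPM, without overlap. The fold within a fish ran from 6.39 to 14.3 in the former and from 4.45 to 18.8 in the latter. The split held for the paired fish only. The medians over all skins and over all tumors were 127 and 4.53 CPM, so an unpaired skin and an unpaired tumor lay between these ranges. Since the paired fish fell into 2 clusters, r was taken within each. As a description, it was 0.88 among the 7 low fish and 0.18 among the 7 high fish.

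ENSXMAT00000003414 ranged between 10.8 and 421 CPM in skin and between 1.72 and 46.5 CPM in tumor, and was highest in both tissues in 11949b. Its skin and tumor levels correlated over 14 fish at Pearson r = 0.92 (permutation p = 4.00e-05, adjusted p = 3.70e-04) and Spearman rho = 0.89 (permutation p = 7.00e-05, adjusted p = 0.00102). Without the 2 fish farthest from the median skin r was 0.90, and within the 7 fish of 11949 it was 0.92. ENSXMAT00000010295 ranged between 5.43 and 107 CPM in skin and between 0.195 and 10.1 CPM in tumor, highest in both in 11949l. Its r was 0.80 (permutation p = 7.50e-04, adjusted p = 0.00222) and rho 0.82 (permutation p = 4.80e-04, adjusted p = 0.00255), with r = 0.76 without 2 fish and 0.88 in 11949.

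At the other end ENSXMAT00000017886 had r = -0.46 (permutation p = 0.0956, adjusted p = 0.123) and rho = -0.50 (permutation p = 0.0728, adjusted p = 0.0991), and r was 0.07 without the 2 farthest fish and -0.51 within 11949. ENSXMAT00000010652, one of the members resting on the skin of 11949h, had 5 counts over all 16 tumors. Its r was -0.29 (permutation p = 0.259, adjusted p = 0.297) and rho -0.37 (permutation p = 0.201, adjusted p = 0.238), with r = -0.27 without 2 fish and no value in 11949, where all 7 paired tumors had no count. ENSXMAT00000012104, not among the 3 lowest and added here for its high level in skin, had r = -0.20 (permutation p = 0.489, adjusted p = 0.527) and rho = -0.35 (permutation p = 0.216, adjusted p = 0.253), with r = -0.22 without 2 fish and -0.14 in 11949. ENSXMAT00000020031 had r = -0.26 (permutation p = 0.364, adjusted p = 0.405) and rho = -0.29 (permutation p = 0.318, adjusted p = 0.356), with r = 0.03 without 2 fish and -0.17 in 11949. None of these 4 passed the test, which with 14 fish does not show that their levels were unrelated.

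Over all 59 members the median same-fish r was 0.38. Of the 59, 46 were above 0, against 9018 of the 9255 transcripts with at least 10 CPM in skin. The permutation test, two-sided with 100000 resamples and adjusted over 9255 transcripts, called 13 of the 59, where the background was 68.7% and the median r 0.71. Since members had few tumor counts, the shares were also taken by tumor level. Among transcripts with a tumor mean from 1 to 5 CPM, 6 of 24 members and 43.1% of all 109 transcripts were called. From 5 to 20 CPM it was 4 of 15 members and 66.8% of all 2476 transcripts. At 20 CPM or more it was 0 of 3 members and 70% of all 6653 transcripts. Below 1 CPM all 17 transcripts were members, and 3 were called.

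**Figure D5:**
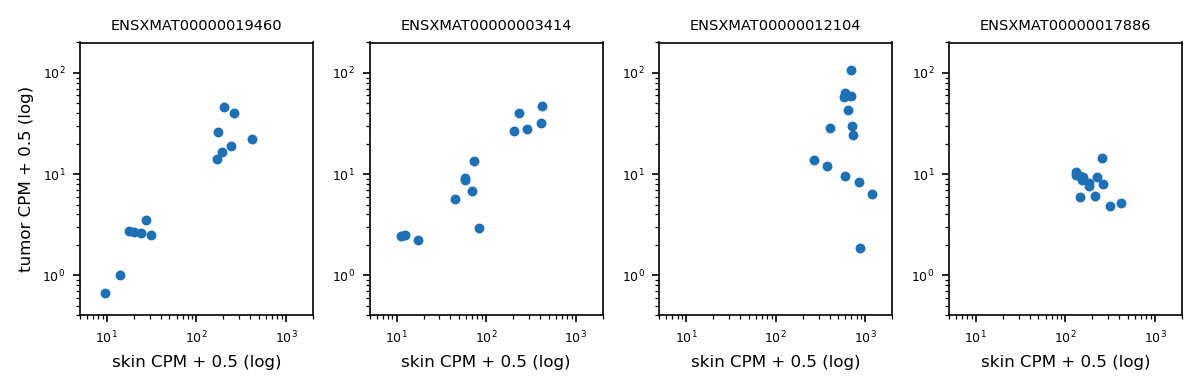
Tumor CPM against skin CPM of the same fish, both plus 0.5 and on log scales, for 4 members over 14 fish, 1 point per fish. ENSXMAT00000019460 shows 2 clusters of 7 fish and ENSXMAT00000003414 a rising relation (r = 0.92), whereas ENSXMAT00000012104 and ENSXMAT00000017886 show none that passed the test.

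Differences between the numbers in the fish names were tested over 11935, 11949 and 11963. In skin, 0 of 52 tested members passed in edgeR, where the background was 0%. An unadjusted p below 0.05 was found for 1 member, against 5.91% of all tested transcripts. DESeq2 called 0 of 49 members and 51 transcripts in all. The member with the unadjusted p below 0.05 was ENSXMAT00000013994, with 283 ± 384 CPM in 11935 (SD, n = 3), 419 ± 229 CPM in 11949 (n = 8) and 63.7 ± 17.4 CPM in 11963 (n = 3) (edgeR unadjusted p = 0.0182, adjusted p = 0.806). ENSXMAT00000007373 and ENSXMAT00000010593 followed with an edgeR adjusted p of 0.847 each, at 3.71 to 93.3 CPM and 2.53 to 180 CPM over the skins.

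In tumor, 0 of 41 tested members passed in edgeR, where the background was 0.00636%. An unadjusted p below 0.05 was found for 2 members, against 8.17% of all tested transcripts. DESeq2 called 0 of 48 members and 90 transcripts in all. The 2 members were ENSXMAT00000012854, with 4.53 ± 1.11, 3.27 ± 0.98 and 6.57 ± 2.73 CPM in the tumors of 11935, 11949 and 11963 (SD, n = 3, 8 and 3, edgeR unadjusted p = 0.0183, adjusted over all transcripts 0.517), and ENSXMAT00000017897. The size of the loss was tested as an interaction of tissue and number. In edgeR 0 of 53 members passed, with a background of 0%. An unadjusted p below 0.05 was found for 2 members, against 0.703% of all tested transcripts. These 2 were ENSXMAT00000012681, which rests on the skin of 11949h, and ENSXMAT00000017080 (edgeR unadjusted p = 0.0405), which does not. With the fish as a block 0 of 53 passed, again with a background of 0%. Here 5 members had an unadjusted p below 0.05, against 5.87% of all tested transcripts. The smallest edgeR adjusted p, 0.243, was that of ENSXMAT00000009985. ENSXMAT00000009985, ENSXMAT00000000524 and ENSXMAT00000010652, all among the 5, rest on the skin of 11949h. The others were ENSXMAT00000017080 and ENSXMAT00000017075 (edgeR unadjusted p = 0.00488 and 0.0230), which met the rule without that skin. DESeq2 called 0 of 58 members for the interaction, and 0 transcripts in all. With 3 fish each in 11935 and 11963, these counts of 0 do not show that the groups were alike.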

How the data were processed

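RNA from skin and melanoma was sequenced by the authors, who deposited 1 table of whole-number counts per transcript. The aligner was GSNAP, as the submitters' processing notes name it. The sources used here give no genome build, annotation or counting program, and do not say how reads that match several transcripts were treated.

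CPM was computed from the deposited counts with the sum of each column. Differences were tested with edgeR 4.0.16 (quasi-likelihood F-test, TMM scaling, filterByExpr, R 4.3.3), with Benjamini-Hochberg adjustment over all tested transcripts and a threshold of 0.05. DESeq2 1.42.0 was an alternative, as were other filters, scalings, thresholds and subsets of fish. Same-fish correlations used log2(CPM + 0.5). Their permutation test was added after the data were examined. The scripts were tested on simulated data. Skin and tumor were paired by the fish in the sample titles, because the same animal gave both. The fish is a different animal in every pair. The tissue and interaction fits without a fish block treated the skin and tumor of the same fish as independent, and the fits with the block used the pairs. For tests between numbers within a tissue, the error was the spread between fish. For the fish test, the difference between fish was itself the effect tested, against the variation left after tissue and fish.

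The members and lists were chosen with earlier results of these data known. Transcripts were named by rule: those highest in skin or tumor, with the largest ratios, just inside or outside the threshold, with the smallest p-values of the fish and number tests, with the extreme same-fish r, and leading each group of at least 5.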

Additional observations from a re-analysis of the deposited data

Results flagged for a closer look

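Of 61 sets of 8 libraries of 11949 examined for a single library far from the rest, 19 held one. Chance flags about 1 in 20 independent sets, but these are not independent and the 19 are not set against it: members could enter the set through 1 high skin, and several of them vary together. No explanation was tested for any. The sets did not cover all 59 members, so the lists below are not complete. ENSXMAT00000000184, for example, stood at 195 CPM in the skin of 11949h and is not among them.

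In the skin of 11949a, ENSXMAT00000005457 stood at 2239 CPM (next 957), ENSXMAT00000008992 at 2283 CPM (next 559), ENSXMAT00000010593 at 180 CPM (next 55.7), ENSXMAT00000017075 at 380 CPM (next 73.5), ENSXMAT00000017080 at 408 CPM (next 131) and ENSXMAT00000017101 at 2834 CPM (next 1068). The members' summed level was also highest there, at 11711 CPM (next 7113).

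In the skin of 11949h, ENSXMAT00000007196 stood at 1120 CPM and ENSXMAT00000015775 at 1029 CPM, with 0 in the other 7 skins of 11949. ENSXMAT00000005939 stood at 202 CPM (next 0.193), ENSXMAT00000010652 at 206 CPM (next 4.03) and ENSXMAT00000014660 at 233 CPM (next 0.181).

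ENSXMAT00000007373 stood at 73.4 CPM in the skin of 11949q (next 16.5), and ENSXMAT00000017886 at 421 CPM in the skin of 11949f (next 260).

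Among tumors, ENSXMAT00000001127 stood at 21.5 CPM in 11949h (next 10.5). In the tumor of 11949l ENSXMAT00000004916 stood at 1.01 CPM (next 0.405), and ENSXMAT00000005939 and ENSXMAT00000014660 stood at 0.169 CPM, which is 1 count, with 0 in the other tumors of 11949. The tumor of 11949f had the lowest total count, 2578877 (next 4938279).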

How the results depend on the processing

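The rule gave 169 transcripts at a ratio of 4, 25 at a ratio of 16, and 38 with 1 CPM added to each mean. With TMM scaling it gave 69, 58 of them members, and from medians in place of means 55, 37 of them members. Leaving out 1 fish at a time gave 53 to 65, and without the skin of 11949h 49, of which 48 were members. The fish test called 32 of 49 members (11578 transcripts in all), 35 of 59 in DESeq2 (13633 in all), 41 of 59 without a low-count filter (12569 in all) and 20 of 49 within 11949 alone. Both fits over 59 include the 10 members resting on the skin of 11949h, for which that 1 skin can carry a pass. Without fish 11949h it called 31. The median residual of 11.3% moved between 8.86% and 13.7% over the alternatives run. Tests between numbers called 0 members with each fish of 11935 and 11963 left out in turn (0 to 0). The replicate block by fish called 49 members lower in tumor, as did the fit without it, and 0 for the interaction. Low counts limit the tumor levels, since up to 15 of the 48 members had no count in a tumor.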

Other observations

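The identifiers that follow 3 of the members in number were much higher in tumor than in skin. These 3 were chosen after their values were seen. Many other neighbours of members changed little, and some were lower in tumor, as the members were. ENSXMAT00000012103, before the member ENSXMAT00000012104, had means of 5.61 CPM in skin and 1.20 CPM in tumor (edgeR adjusted p = 2.48e-09). ENSXMAT00000005271, after the member ENSXMAT00000005270, had 9.08 and 0.430 CPM (edgeR adjusted p = 1.82e-08). ENSXMAT00000012105 had a mean of 15.5 ± 12.6 CPM over skins (SD, n = 16) and of 2691 ± 1727 CPM over tumors (SD, n = 16), ranging from 2.83 to 50.3 CPM in skin and from 126 to 6305 CPM in tumor (edgeR adjusted p = 6.38e-13). The log2 ratio of its means, with 0.5 CPM added to each, was 7.39, which ranked 2 among 20499 rows, and the same ratio was -4.34 for the member ENSXMAT00000012104. ENSXMAT00000009986, after the member ENSXMAT00000009985, had means of 9.19 CPM in skin and 133 CPM in tumor (log2 ratio 3.79, edgeR adjusted p = 6.75e-08). The member ENSXMAT00000009985 is among those resting on the skin of 11949h, which held 81.7% of its sum over skins. Its median over skins was 0.084 CPM, with no count in 8 skins. ENSXMAT00000008993, after the member ENSXMAT00000008992, had 20.9 and 95.7 CPM (log2 ratio 2.17, edgeR adjusted p = 6.83e-05). The sources used here do not say whether neighbouring identifiers belong to the same gene.

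Some members with close identifiers varied together. ENSXMAT00000000944 and ENSXMAT00000000949 correlated at r = 0.99 over the 16 skins and 0.99 over the 16 tumors, and ENSXMAT00000017075 and ENSXMAT00000017080 at 0.92 and 0.91. Others did not: for ENSXMAT00000012175 and ENSXMAT00000012181 r was 0.13 and -0.08. How reads shared between such transcripts were counted is unknown here.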
